A study of Homo sapiens with 9 samples.

Results

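The 10 genes described here encode the Rel subunits of the transcription factor NF-kB and proteins that regulate it. The 5 Rel subunits are RELA, RELB, REL, NFKB1 and NFKB2, and the regulators are NFKBIA, NFKBIB, NFKBIE, BCL3 and TNFAIP3. The 10 genes were chosen by name, with earlier results of these data known, so their counts beside the shares over all genes are descriptions. All 10 were found among the 58735 genes of the deposited table, and all 10 passed the filter on low counts in each comparison. RNA-seq was performed in KHM-5M, a human thyroid cancer cell line, after 24 h with DMSO, the vehicle, or with YK-4-279, an inhibitor of ETS transcription factors, at 0.3 μM or 1 μM. Each of the 3 groups held 3 samples, 9 in all. All samples share the genotype of this line, which per the study's text carries a mutation of the kinase gene BRAF and one of the TERT promoter. By their labels the groups differed in treatment only. The methods speak of biological replicates without saying how they were grown, so P-values measure the spread between these samples, and all results hold for a single cell line at a single time.

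Rel proteins bind DNA as pairs at short sequences called kappa B sites. In resting cells the IkB inhibitors, encoded by NFKBIA, NFKBIB and NFKBIE, keep most pairs in the cytoplasm. A signal from a receptor activates IkB kinases, the inhibitors are degraded, and the pairs enter the nucleus. In the canonical branch the main pair is RELA with p50, the processed product of NFKB1. In the noncanonical branch it is RELB with p52, made from NFKB2. Several of these genes are themselves NF-kB targets, so that the factor renews its own inhibitors, and their mRNA levels report on the genes and not on where the proteins are.

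Total counts were 16903251 to 18238884 per sample (median 17551482), and the upper limit for a gene with no counts is 3 counts, which is 0.164 to 0.177 CPM (a count relative to the total of its library) and covers counting error only. Mitochondrial genes took 2.84% to 3.44% of the counts. PAX8, a thyroid transcription factor gene, was at 21.6 to 27.7 FPKM (fragments per kilobase of gene length, scaled to library size) across all samples. The thyroid transcription factor genes NKX2-1, at most 0.174 FPKM, and FOXE1, at 0.110 to 0.567 FPKM, were low. The differentiation markers TG, TSHR and SLC5A5 were each under 0.1 FPKM. Of 10 thyroid follicular markers, 2 reached 1 FPKM in any sample, PAX8 and HHEX (5.12 to 7.49 FPKM). The epithelial keratin genes KRT8 and KRT18 and the mesenchymal gene VIM were all above 100 FPKM. Of the other epithelial markers, KRT7 was at 17.2 to 22.3 FPKM, EPCAM at 2.06 to 2.86 and KRT19 at 1.56 to 2.57. The epithelial cadherin gene CDH1 was under 0.1 FPKM in every sample. Of the other mesenchymal markers, FN1 was at 202 to 302 FPKM, CDH2 at 22.8 to 26.1, ZEB1 at 9.02 to 12.1 and SNAI2 at 4.22 to 6.44. Of 7 leukocyte markers 6 stayed under 0.1 FPKM in every sample, and the summed level of the list was 0.254 to 0.720 FPKM in DMSO, 0.252 to 0.624 at 0.3 μM and 1.00 to 1.14 at 1 μM, nearly all of it from CD14. The pan-leukocyte gene PTPRC was at 0 in DMSO and at most 0.00645 FPKM at 1 μM.

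Sequences before the start sites of the genes were read from RefSeq promoters on GRCh38.p14, each spanning 250 bases before to 50 bases after a start site. The table held 13 such entries for 8 of the 10 genes. RELB and NFKBIE had no entry. The kappa B consensus, searched on both strands, was found in 7 of the 8 genes and in 8 of the 13 entries, in 12 stretches in all, while RELA had none. Of all 35116 promoters of this length, 11.3% held the consensus. For each gene the stretch closest to any of its RefSeq start sites is printed here because it is the letter pattern that Rel proteins recognise. The match is in capitals and flanking bases are in lower case, 5′ to 3′ on the strand of the gene. In NFKB2 and NFKBIB it belongs to a later start site, at 102395705 and 38899969. The entries at their first start sites, 102394110 and 38899666, held no match.

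NFKB1, chr4:102501300-102501329, plus strand: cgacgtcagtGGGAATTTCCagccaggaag
NFKB2, chr10:102395674-102395703, plus strand: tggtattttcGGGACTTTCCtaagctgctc
REL, chr2:60881518-60881547, plus strand: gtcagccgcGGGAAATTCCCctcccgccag
NFKBIA, chr14:35404811-35404840, minus strand: tgactggcttGGAAATTCCCcgagcctgac
NFKBIB, chr19:38899932-38899961, plus strand: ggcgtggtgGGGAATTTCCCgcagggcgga
BCL3, chr19:44748700-44748729, plus strand: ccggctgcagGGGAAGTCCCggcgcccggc
TNFAIP3, chr6:137867194-137867223, plus strand: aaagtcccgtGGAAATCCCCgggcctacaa

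These stretches lie before the RefSeq start site except in BCL3, where the match follows it directly. A match is a description of the letters and was not measured as a bound site. The genes that hold one include REL and NFKBIB, which did not pass the test at either dose. The motif CCGGAAGT, a strong form of the sequence that ETS factors bind, was searched on both strands and was absent from the 13 entries. Of all promoters 4.14% held it, a share so low that absence from 13 entries shows no difference. Other forms of the ETS sequence were not searched, so these promoters may hold them. For NFKBIA, the most abundant of the 10 mRNAs, the 250 bases before its start site (chr14:35404750-35404999, minus strand, outside any exon of the gene) show where the match sits, in capitals, ahead of the tataggg run near the start.

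NFKBIA upstream: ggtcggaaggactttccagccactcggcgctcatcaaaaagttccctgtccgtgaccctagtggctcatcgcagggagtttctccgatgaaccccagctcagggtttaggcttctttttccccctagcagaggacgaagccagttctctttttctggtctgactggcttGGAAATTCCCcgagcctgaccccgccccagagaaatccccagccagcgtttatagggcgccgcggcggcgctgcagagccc

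In DMSO the levels of the 10 genes spanned from 51.6 FPKM for NFKBIA to 0.689 FPKM for REL. NFKBIA was followed by NFKB2 at 24.9 FPKM, BCL3 at 19.6, RELA at 19.5, NFKBIB at 11.7, RELB at 9.51, NFKB1 at 9.36, NFKBIE at 6.96 and TNFAIP3 at 5.29. Neighbours in this order overlapped between samples for BCL3 and RELA, for NFKBIB and RELB, for RELB and NFKB1, and for NFKBIE and TNFAIP3. REL, with a deposited gene length of 13170 bases, the longest of the 10, was read by 135 to 199 counts per DMSO sample, compared with 2061 to 2185 for NFKBIA. At 1 μM the first 4 places were the same, and RELB (14.6 FPKM) and NFKB1 (14.5 FPKM) then stood above NFKBIB (13.4 FPKM) and NFKBIE (13.1 FPKM), with overlapping samples between each of these neighbours.

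**Figure D1:**
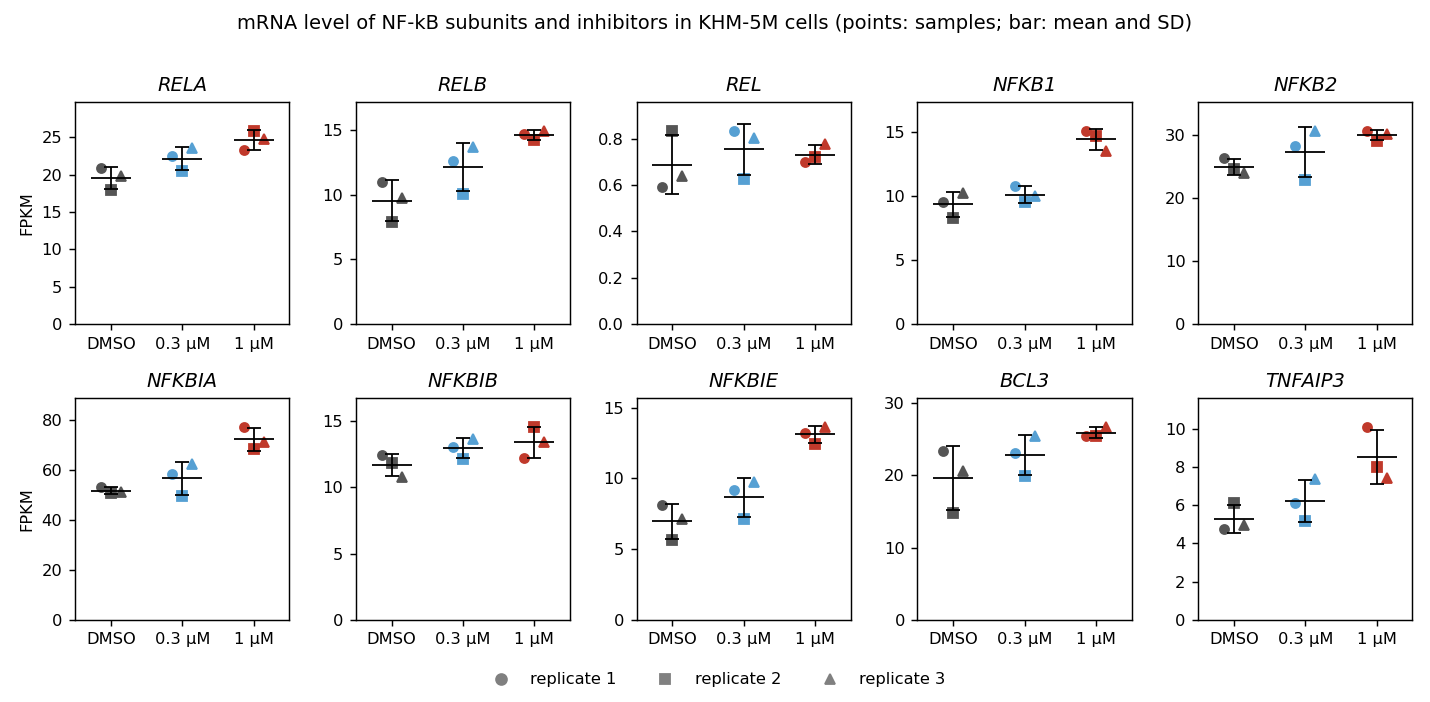
Level of each of the 10 genes in FPKM (vertical axes, each from 0) in the 3 samples of DMSO, 0.3 μM and 1 μM, with the mean and SD as bars and the replicate number as the marker shape. For 8 genes all 1 μM samples lie above all DMSO samples, and in REL and NFKBIB the groups overlap.

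YK-4-279 at 1 μM was accompanied by higher mRNA of RELA, NFKB1, RELB, NFKB2, NFKBIA, NFKBIE, BCL3 and TNFAIP3, but REL and NFKBIB were not called. With edgeR's quasi-likelihood test and Benjamini-Hochberg adjustment over 15617 genes, 8 of the 10 genes rose and none fell, at an adjusted p under 0.05. Over all genes tested 17.6% were called in either direction and 7.67% were called higher. NFKBIE, TNFAIP3, NFKB1 and RELB rose by more than 1.5-fold, a rise that 1.37% of all genes tested showed. In the 8 called genes all 1 μM samples lay above all DMSO samples, as in 20.0% of all genes tested. The median log2 fold change of the 10 genes was 0.43, or 1.34-fold, compared with -0.01 over all genes tested. Because the libraries are bulk RNA, more RNA per cell and a change in which cells were present cannot be told apart.

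RELA, the subunit with the main activation domain of the canonical pair, was at 20.9, 18.0 and 19.8 FPKM in DMSO, 22.5, 20.4 and 23.5 at 0.3 μM, and 23.2, 25.8 and 24.7 at 1 μM. The 1 μM samples were all above the DMSO samples, and the 0.3 μM samples lay between with overlap on both sides. RELA rose at 1 μM by a log2 fold change of 0.32 (standard error 0.07, edgeR adjusted p = 0.00641, n = 3 per group).

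NFKB1, which encodes p105 and its product p50, was at 9.55, 8.28 and 10.2 FPKM in DMSO, 10.8, 9.55 and 10.05 at 0.3 μM, and 15.1, 14.7 and 13.5 at 1 μM. Its DMSO and 0.3 μM samples overlapped, and its 1 μM samples stood clear of both. The rise at 1 μM was 0.61 on the log2 scale (standard error 0.08, edgeR adjusted p = 0.000187), or 1.53-fold. Over 17 alternatives, among them each sample left out in turn, the log2 fold change of NFKB1 was 0.54 to 0.68 and it was called in all 17.

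RELB, the partner of p52 in the noncanonical branch, was at 10.98, 7.85 and 9.71 FPKM in DMSO, 12.6, 10.05 and 13.7 at 0.3 μM, and 14.7, 14.2 and 14.9 at 1 μM. Replicate 2 was the lowest sample of RELB in all 3 groups, and the 1 μM samples were the highest of the 9. RELB rose 1.52-fold at 1 μM (log2 fold change 0.60, standard error 0.10, edgeR adjusted p = 0.00133).

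NFKB2, the precursor of p52, was at 26.3, 24.5 and 23.9 FPKM in DMSO, 28.3, 22.9 and 30.6 at 0.3 μM, and 30.6, 29.0 and 30.2 at 1 μM. The 1 μM samples exceeded the DMSO samples by a small margin, and the 0.3 μM samples spread across both. NFKB2 had the smallest rise of the 8 called genes, 0.25 on the log2 scale (standard error 0.06, edgeR adjusted p = 0.0113). This call was lost without replicate 3 of DMSO (adjusted p = 0.0710) and without replicate 3 of 1 μM (adjusted p = 0.0505).

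REL, the subunit best known from lymphoid cells, was at 0.592, 0.833 and 0.641 FPKM in DMSO, 0.833, 0.628 and 0.803 at 0.3 μM, and 0.698, 0.719 and 0.776 at 1 μM. The groups overlapped, and the highest value belonged to a DMSO sample. Its log2 fold change at 1 μM was 0.07, with a 95% interval from -0.24 to 0.37 (edgeR adjusted p = 0.792), so that a rise of the size seen in RELA was within the interval.

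Among the inhibitors, NFKBIA, which encodes IkB alpha, the inhibitor that is resynthesised most rapidly after a signal, was at 53.2, 50.7 and 50.9 FPKM in DMSO, 58.3, 49.3 and 62.2 at 0.3 μM, and 77.2, 68.1 and 70.9 at 1 μM. The DMSO samples lay close together and the 1 μM samples were all higher. NFKBIA rose by 0.47 on the log2 scale (standard error 0.06, edgeR adjusted p = 0.000210) and was called in all 17 alternatives.

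NFKBIE, which encodes IkB epsilon, was at 8.10, 5.62 and 7.15 FPKM in DMSO, 9.19, 7.12 and 9.72 at 0.3 μM, and 13.2, 12.4 and 13.6 at 1 μM. The lowest 1 μM sample exceeded every sample of the other groups. Its rise of 1.86-fold was the largest of the 10 genes (log2 fold change 0.90, standard error 0.11, edgeR adjusted p = 0.000161) and remained called in all 17 alternatives, with a log2 fold change of 0.77 to 1.03.

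NFKBIB, which encodes IkB beta, was at 12.4, 11.9 and 10.8 FPKM in DMSO, 13.1, 12.1 and 13.6 at 0.3 μM, and 12.2, 14.6 and 13.4 at 1 μM. Replicate 1 of 1 μM lay below replicate 1 of DMSO, so that the groups overlapped. Its log2 fold change at 1 μM was 0.18, with a 95% interval from -0.02 to 0.37 (edgeR adjusted p = 0.202). NFKBIB shares 163 bases with SIRT2 on the opposite strand, and without a stated strand setting in the counting, reads of that stretch cannot be assigned.

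BCL3, an atypical IkB protein that works in the nucleus with p50 or p52, was at 23.4, 14.7 and 20.7 FPKM in DMSO, 23.1, 19.9 and 25.4 at 0.3 μM, and 25.5, 25.5 and 26.8 at 1 μM. DMSO was spread most widely because replicate 2 was low, whereas the 1 μM samples were almost level. BCL3 rose by 0.39 (standard error 0.12, edgeR adjusted p = 0.0381). Its size was 0.22 without replicate 2 of DMSO, still called (adjusted p = 0.0283). The call was lost without replicate 3 of DMSO (adjusted p = 0.0752), without replicate 1, 2 or 3 of 1 μM (adjusted p = 0.0714, 0.0844 and 0.1001) and with limma on log2(FPKM + 0.1) (adjusted p = 0.127).

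TNFAIP3, which encodes A20, a ubiquitin-editing enzyme that ends signalling upstream of the IkB kinases, was at 4.77, 6.12 and 4.97 FPKM in DMSO, 6.14, 5.197 and 7.35 at 0.3 μM, and 10.1, 8.004 and 7.44 at 1 μM. Replicate 1 of 1 μM was the highest by a clear step, yet the other two 1 μM samples also exceeded all 6 of the remaining samples. TNFAIP3 rose 1.59-fold (log2 fold change 0.67, standard error 0.12, edgeR adjusted p = 0.00161). An antisense RNA overlaps TNFAIP3, with a mean of 11.2 counts compared with 596 for TNFAIP3.

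With limma on log2(FPKM + 0.1) and no filter on low values, the calls at 1 μM for RELA (adjusted p = 0.0657), RELB (adjusted p = 0.0503) and TNFAIP3 (adjusted p = 0.0673) were lost as well as that of BCL3, while NFKB1, NFKB2, NFKBIA and NFKBIE were called in that fit too. With the low values filtered, the same limma test called 7 of the 10 genes and DESeq2 called 8.

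**Figure D2:**
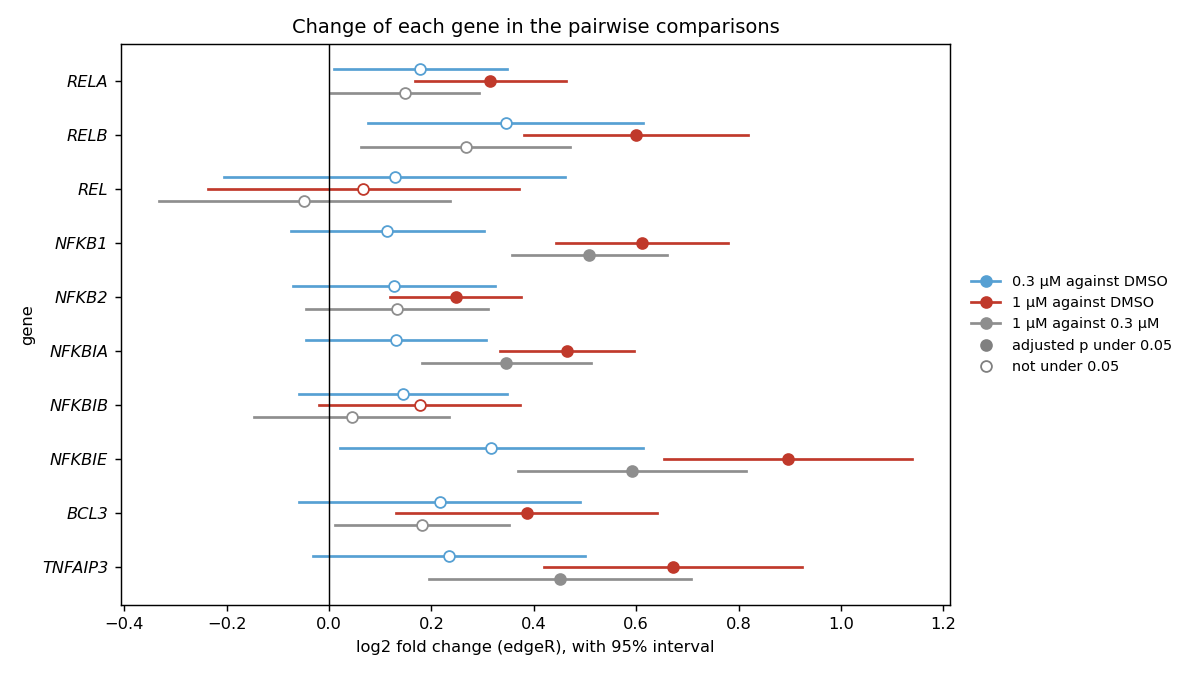
Log2 fold change of each gene by edgeR (horizontal axis, points) with its 95% interval (lines) for each dose against DMSO and for the higher dose against the lower, with filled points at an adjusted p under 0.05. At 1 μM against DMSO 8 points are filled, at 0.3 μM none, and between the doses 4.

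At 0.3 μM none of the 10 genes passed the test against DMSO. With edgeR the count of genes called over all 15762 tested was also 0 (0.0%), and DESeq2, run as an alternative, called 1 gene overall and none of the 10. The adjusted p was 0.995 for each of the 10. An unadjusted p under 0.05 was reached by RELA, RELB and NFKBIE, all higher, and by 594 genes, or 3.77%, of all tested (1.64% higher). The log2 fold changes were above 0 for all 10 genes and for 50.3% of all genes, with values from 0.11 (NFKB1) to 0.35 (RELB) and a median of 0.16 compared with 0.00 overall. In none of the 10 did the 0.3 μM samples stand apart from the DMSO samples, a pattern of higher values that 3.95% of all genes showed.

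The 3 samples at 0.3 μM were not alike in these genes. Relative to the mean of DMSO, the median log2 FPKM of the 10 genes was 0.22 higher in replicate 1 and 0.28 higher in replicate 3, and 0.04 higher in replicate 2. All 10 genes were above the DMSO mean in replicates 1 and 3, and 6 were in replicate 2. The same median lay between -0.07 and 0.08 in the DMSO samples and between 0.40 and 0.49 in the 1 μM samples, while over all genes tested it was between -0.0028 and 0.0207 in each library. By the median of the 10 genes, replicate 2 was also the lowest sample in DMSO (-0.07) and at 1 μM (0.40).

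Compared with 0.3 μM, 1 μM was accompanied by higher NFKB1, NFKBIE, NFKBIA and TNFAIP3, 4 of the 10 genes, where 12.6% of 15583 genes tested were called and 5.85% called higher. The log2 fold changes were 0.51 for NFKB1 (standard error 0.07, edgeR adjusted p = 0.000298), 0.59 for NFKBIE (standard error 0.11, adjusted p = 0.00179), 0.35 for NFKBIA (standard error 0.08, adjusted p = 0.00884) and 0.45 for TNFAIP3 (standard error 0.12, adjusted p = 0.0221). RELB and BCL3 had all 1 μM samples above all 0.3 μM samples as well, as 16.6% of all genes did, but missed the threshold (edgeR adjusted p = 0.0816 and 0.152). Mean FPKM was higher at each step from DMSO to 0.3 μM to 1 μM in 9 of the 10 genes, with REL the exception. The comparisons share samples, so this order is a description.

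The count between the doses rested on single libraries. Without replicate 2 of 0.3 μM it was 2, since NFKBIA (edgeR adjusted p = 0.0501) and TNFAIP3 (adjusted p = 0.117) were lost. TNFAIP3 was also lost without replicate 1 of 0.3 μM (adjusted p = 0.0567) or replicate 1 of 1 μM (adjusted p = 0.133). Without replicate 3 of 0.3 μM, RELB (adjusted p = 0.0145) and BCL3 (adjusted p = 0.0245) were added, giving 6. With the GC correction RELA, RELB and BCL3 passed the threshold (edgeR adjusted p = 0.0297, 0.0287 and 0.0403), and with limma on log2(FPKM + 0.1) NFKBIA and TNFAIP3 did not (adjusted p = 0.0727 and 0.130).

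Summed over the 5 Rel subunits, FPKM was 64.0 ± 4.44 (SD, n = 3) in DMSO, 72.4 ± 7.88 at 0.3 μM and 84.3 ± 0.189 at 1 μM. NFKB2 made up the largest share at each dose, 39.0% ± 2.07 in DMSO and 35.5% ± 1.008 at 1 μM, followed by RELA at 30.5% ± 0.281 and 29.2% ± 1.51. NFKB1 made up 14.6% ± 1.14 in DMSO and 17.1% ± 0.964 at 1 μM, and RELB 14.8% ± 1.46 and 17.3% ± 0.475. REL was 1.09% ± 0.279 of the sum in DMSO and 0.867% ± 0.0494 at 1 μM. The 3 IkB genes summed to 70.2 ± 2.98 FPKM in DMSO, 78.2 ± 8.74 at 0.3 μM and 98.6 ± 3.73 at 1 μM, with NFKBIE at 9.87% ± 1.45 of that sum in DMSO and 13.3% ± 0.559 at 1 μM. NFKBIA made up 73.5% ± 1.16 and 73.1% ± 1.92 of it. These shares were not tested.

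Ratios of 2 genes within a library do not depend on how the library is scaled, and 5 were compared between 1 μM and DMSO by a two-sided exact permutation test, for which 0.1 is the smallest p that 3 samples against 3 can give. The log2 ratio of RELB to RELA was -0.93, -1.19 and -1.03 in DMSO and -0.66, -0.87 and -0.73 at 1 μM. Every 1 μM sample had a higher ratio than every DMSO sample, with a difference of 0.30 on the log2 scale (exact p = 0.1, 0.167 after adjustment over the 5 ratios).

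The log2 ratio of NFKB2 to NFKB1 was 1.46, 1.57 and 1.22 in DMSO and 1.02, 0.98 and 1.16 at 1 μM, with all 1 μM samples below the DMSO samples (difference -0.37, exact p = 0.1, adjusted 0.167). The 0.3 μM samples, at 1.39, 1.26 and 1.61, lay among the DMSO samples. The log2 ratio of NFKBIE to NFKBIA was -2.71, -3.18 and -2.83 in DMSO and -2.55, -2.45 and -2.38 at 1 μM, with all 1 μM samples above the DMSO samples (difference 0.45, exact p = 0.1, adjusted 0.167). Without replicate 2 of DMSO these differences were 0.22, -0.29 and 0.31.

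When the branches were summed, the ratio of RELB plus NFKB2 to RELA plus NFKB1 differed by -0.06 on the log2 scale (SD 0.08 in each group, exact p = 0.5), less than the spread between samples. The summed IkB genes against the summed Rel subunits differed by 0.09 (exact p = 0.2), and the groups overlapped. The 2 single-gene ratios thus pointed to opposite branches, RELB being higher relative to RELA and NFKB1 higher relative to NFKB2, and the ratio of the sums overlapped between the groups.

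**Figure D3:**
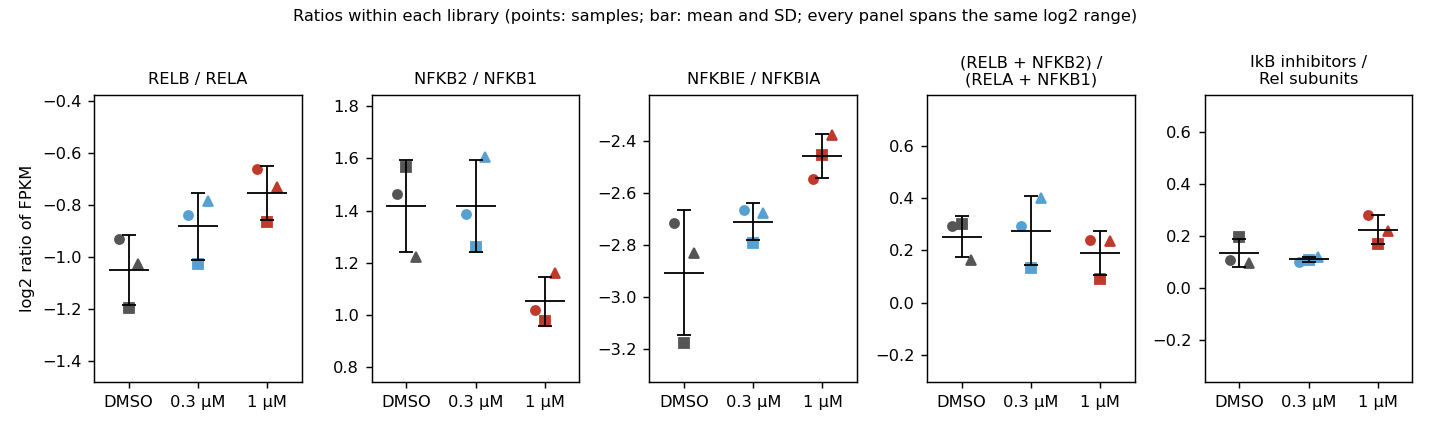
Log2 ratio of FPKM within each library (vertical axes, all spanning the same log2 range) for the 5 ratios in the 3 groups, with samples as points and the mean and SD as bars. At 1 μM the first 3 ratios stand apart from DMSO, upward, downward and upward, and the last 2 overlap.

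For the 4 genes that rose over 1.5-fold at 1 μM, the level pattern over the 9 samples was compared with that of 11090 genes. The measure was the root mean square difference in log2 CPM, centred on DMSO, where 0 is identity. Among the 10 genes themselves, the most alike were NFKB2 and RELA (0.10), and the least alike were REL and NFKBIE (0.54). Closest to NFKB1 were SLC27A4 (0.07), MARS2 (0.09) and RHBDF2 (0.09). RELB was nearest to FOXF2 (0.08), the cytokine gene LIF (0.10) and the interleukin-1 receptor kinase gene IRAK2 (0.10). NFKBIE was nearest to IER3 (0.13), the AP-1 subunit gene FOSL1 (0.14) and CITED4 (0.15). TNFAIP3 was nearest to KLHL18 (0.12), TNF (0.13) and SQSTM1 (0.14), the last encoding the autophagy receptor p62. At 1 μM the log2 fold changes of these 12 genes ran from 0.47 (IRAK2) to 0.93 (IER3). These genes were picked by likeness, so their change at 1 μM is a description.

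The other genes of the pathway were counted in 5 lists, also chosen with earlier results of these data known. The lists held 179 genes, of which 164 were tested at 1 μM. Of these, 76 rose and 6 fell (7.67% and 9.95% of all genes tested), and 32 of the rises and 2 of the falls exceeded 1.5-fold. The median log2 fold change was 0.24 compared with -0.01 over all genes tested. The lists differed in their counts. Targets that encode cytokines and adhesion molecules rose in 24 of 30 cases and fell in none, with a median of 0.88, and 17 rose by more than 1.5-fold. Survival and other targets rose in 22 of 43 and fell in 2 (median 0.24).

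**Figure D4:**
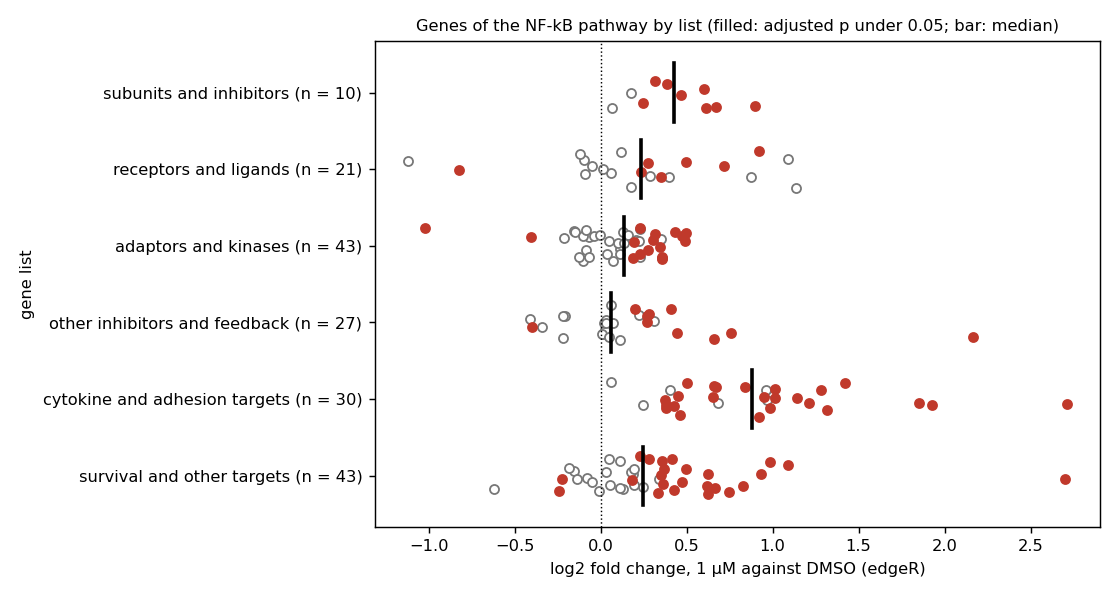
Log2 fold change at 1 μM against DMSO (horizontal axis) of the 10 genes and of the tested genes of the 5 pathway lists (rows), with filled points at an adjusted p under 0.05 and a bar at the median. The cytokine and adhesion targets have the highest median, 0.88, and the other inhibitors and feedback genes the lowest, 0.06.

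Among receptors and ligands 6 of 21 rose and 1 fell (median 0.23). TNF, the ligand that gives the canonical branch its best known signal, was at 5.96 to 7.07 FPKM in DMSO and 9.91 to 11.7 at 1 μM (log2 fold change 0.72, standard error 0.11, edgeR adjusted p = 0.000601). The receptor gene TLR3, which senses double-stranded RNA, went from between 17 and 28 counts in DMSO to between 32 and 50 at 1 μM (0.92, standard error 0.28, edgeR adjusted p = 0.0387), a call that was lost in 6 of 15 alternatives. LTB, a ligand of the noncanonical branch, fell from 38 to 45 counts to 19 to 26 (-0.82, standard error 0.27, edgeR adjusted p = 0.0494), and its call was lost in 12 of 17 alternatives, including each sample left out in turn.

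Adaptors and kinases rose in 15 of 43 cases and fell in 2 (median 0.13), none of the rises exceeding 1.5-fold. UBE2V1, a cofactor of the enzyme that builds ubiquitin chains in this pathway, had the largest fall, from 447 to 518 counts in DMSO to 169 to 330 at 1 μM (-1.02, standard error 0.15, edgeR adjusted p = 0.000520, lost by limma without a filter at an adjusted p of 0.0587). It has processed pseudogenes and a read-through transcript listed as separate genes, so its level is uncertain. Of the IkB kinase genes, picked after their values were seen, CHUK rose by 0.36 (standard error 0.08, edgeR adjusted p = 0.00906) and IKBKE, which encodes IkB kinase epsilon, by 0.43 (standard error 0.10, edgeR adjusted p = 0.00789). The IKBKE call held in all 17 alternatives, and that of CHUK, which overlaps ERLIN1 and may share reads with it, was lost by limma without a filter (adjusted p = 0.0719). IKBKB had a value of -0.21 (adjusted p = 0.115, or 0.0425 without replicate 1 of 1 μM), the regulatory subunit gene IKBKG 0.11 (adjusted p = 0.482) and TBK1, which encodes a kinase related to IkB kinase epsilon, 0.04 (adjusted p = 0.849). MAP3K14, the kinase at the head of the noncanonical branch, had a value of -0.08 (adjusted p = 0.631). The other genes that fell, named here after their values were seen, were TRAF5, SIGIRR, GADD45A and PLK2, with log2 fold changes of -0.41, -0.40, -0.24 and -0.22, and their calls were lost in 3, 5, 4 and 4 of 17 alternatives.

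Other inhibitors and feedback genes rose in 9 of 27 cases and fell in 1 (median 0.06). NFKBIZ, an atypical IkB protein like BCL3, was at 12.1 to 12.4 FPKM in DMSO and 18.4 to 21.999 at 1 μM (0.66, standard error 0.07, edgeR adjusted p = 5.35e-05). ZC3H12A, an RNase that degrades inflammatory mRNAs, went from between 10.1 and 11.9 FPKM to between 17.7 and 20.2 (0.76, standard error 0.08, edgeR adjusted p = 5.35e-05). TNIP3, which binds A20, was read by 4 to 8 counts per DMSO sample and by 12 to 42 per sample at 1 μM (2.17, standard error 0.51, edgeR adjusted p = 0.00982), and the call was lost without replicate 1 of 1 μM (adjusted p = 0.0670). CYLD, a deubiquitinase with a role like that of A20, had a value of 0.01 (adjusted p = 0.912) and was picked after its value was seen.

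Of the cytokine targets, IL6 was at 0.935 to 1.70 FPKM in DMSO, 1.47 to 3.27 at 0.3 μM and 4.05 to 7.15 at 1 μM, a rise at 1 μM of 1.93 on the log2 scale (standard error 0.23, edgeR adjusted p = 0.000127). CCL20 and IL1B were the other two with the largest rises of their list, at 2.72 and 1.85 on the log2 scale. In the last list PTGS2 (2.70), LCN2 (1.09) and TNFRSF9 (0.98) led. Counts were low for CCL20, at 7 to 20 per DMSO sample and 69 to 88 at 1 μM. They were also low for PTGS2 (19 to 24 and 79 to 247) and LCN2 (12 to 21 and 30 to 44). TNFRSF9, a receptor of the TNF family, was at 1.95 to 2.20 FPKM in DMSO and 3.82 to 4.55 at 1 μM (standard error 0.10, edgeR adjusted p = 2.96e-05), whereas the call for LCN2 (adjusted p = 0.0274) was lost in 5 of 17 alternatives. Leukocytes, a common source of such cytokines, were represented by the markers given above, with PTPRC at or near 0 in all samples. CD14 was at 0.234 to 0.643 FPKM in DMSO and 0.919 to 1.07 at 1 μM, and its part in these results was not tested.

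At 0.3 μM none of 164 tested genes of the 5 lists was called by edgeR, 18 had an unadjusted p under 0.05 (3.77% of all genes tested did), and the median log2 fold change was 0.08. Between the doses 45 rose and 3 fell of 164, where 5.85% of all genes tested were called higher and 6.75% lower. Of the rises, 21 were among the 30 cytokine and adhesion targets. Without replicate 2 of 0.3 μM, 31 in place of 48 of these genes were called between the doses.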

How the data were processed

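RNA-seq counts and FPKM values of 9 samples (3 groups of 3) were analysed. According to the methods, Hisat2 was used by the authors for alignment to GRCh38 and HTseq for gene counts, whereas the submitters' processing notes name HISAT2 2.0.5, featureCounts 1.5.0-p3 and DESeq2 1.20.0. A strand setting for the counting is not given in the sources used here, and the methods give 2 biological replicates per condition where the labels give 3. The deposited counts are raw whole numbers per gene. The FPKM values deposited by the authors equal the counts divided by gene length and by a library size within 3 percent of the count total. Columns with the authors' own fold changes and p-values were not used.

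Counts were tested with edgeR 4.0.16 (R 4.3.3): filterByExpr with a minimum count of 10, TMM, glmQLFit and glmQLFTest on the groups compared, and Benjamini-Hochberg adjustment over all genes tested. Alternatives were DESeq2 1.42.0, RLE size factors, no filter, one fit of all 9 samples, a block for the replicate number, corrections for gene length and GC content (lowess, span 0.3), limma 3.58.1 on log2(FPKM + 0.1) or log2(FPKM + 1), a 1.5-fold cutoff, the unadjusted p, and each sample left out in turn. Steps were tested on simulated data. Levels, ratios, promoters and figures used Python 3.11.15, pandas 2.3.3, numpy 2.4.6, scipy 1.17.1 and matplotlib 3.10.9.

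At 16903251 to 18238884 counts per sample, the counts of each of 9 within-group pairs differed beyond sampling noise (3.20 to 10.66 chi-square units per degree of freedom), so each sample counted as 1. Genes were named by rule: the 10 genes, the 3 highest and 3 lowest called changes over 1.5-fold in each list at 1 μM, and the 3 genes nearest in pattern to each of the 10 that rose over 1.5-fold, among genes with a mean of at least 5 CPM (offset 0.5 CPM). The 10 genes and all lists were chosen with earlier results of these data known. Where a symbol had 2 identifiers (SOD2), the one with the larger mean count was used. Coordinates and promoter sequences are those of RefSeq on GRCh38.p14.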

Additional observations from a re-analysis of the deposited data

How the results depend on the processing

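Each of the 10 genes was recomputed under 11 other settings and with each of 6 samples left out. At 1 μM the number called was 8 of 10 except with limma on FPKM (7 with either pseudocount, 4 without a filter), with the 1.5-fold cutoff (4) and with a sample left out (6 to 8). The pathway lists gave 82 genes, 46 by limma without a filter, 34 with the cutoff, and 62 to 82 with a sample left out. At 0.3 μM the counts were 0 and 0 under every setting except the unadjusted p (3 of the 10 and 18 of the lists) and no filter (2 of the lists), and 0 with each sample left out. Between the doses, 4 of the 10 became 7 with the GC correction, 7 with the replicate block and GC correction, 7 by the unadjusted p, 2 by limma with either pseudocount, 1 by limma without a filter, 1 with the cutoff, and 2 to 6 with a sample left out. The genes added by the GC correction were RELA, RELB and BCL3 (DESeq2 and RLE size factors gave 4). The 48 of the lists became 25 and 26 by limma with the smaller and larger pseudocount, 9 without a filter, 24 with the cutoff, 84 by the unadjusted p, and 31 to 55 with a sample left out. Why limma called fewer genes was not tested.

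The within-library ratios at 1 μM kept their sign with each sample left out: 0.22 to 0.36 for RELB to RELA, -0.46 to -0.29 for NFKB2 to NFKB1, 0.31 to 0.54 for NFKBIE to NFKBIA, -0.11 to -0.02 for the summed branches and 0.06 to 0.12 for inhibitors to subunits. With 2 samples left in a group their p could not fall under 0.2. Direction changed in genes that were not called. With a sample left out in turn, the log2 fold change of REL at 1 μM was -0.027 (without replicate 1 of DMSO) to 0.23, that of REL between the doses was -0.17 to 0.029 (without replicate 1 of 0.3 μM), and that of NFKBIB between the doses was -0.018 (without replicate 2 of 1 μM) to 0.11, with -0.0007 without replicate 2 of 0.3 μM. At 1 μM it was -0.032 to 0.15 for TBK1, -0.15 to 0.0070 for MAP3K14 and -0.037 to 0.047 for CYLD.

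Samples with the same replicate number did not deviate together across all 3 groups (correlations of -0.13 to 0.21 over 12109 genes, above 0.1 in 2 of 9 pairs). Between DMSO and 0.3 μM they were 0.21, 0.16 and 0.07, whereas samples of other numbers gave -0.16 to -0.005. Between DMSO and 1 μM they were -0.13, -0.08 and 0.10, and between the doses -0.04, -0.06 and -0.02. The numbers were not taken as pairs, and whether DMSO and 0.3 μM samples of the same number were handled together was not tested. With the replicate block, 8 of the 10 genes were called at 1 μM, 0 at 0.3 μM and 4 between the doses, and the lists gave 70, 0 and 51. Over all genes the block called 2120 in place of 2752 at 1 μM. At these depths REL, read by 135 to 199 counts per sample, had the widest intervals of the 10 genes.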
